A study of Mus musculus with 8 samples.

Results

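The Eya, Six-family and Dach genes encode 3 groups of proteins that act together on transcription. The members followed here were Eya1, Eya2, Eya3 and Eya4, Six2, Six4 and Six5, and Dach1 and Dach2. Each had a probe set of a single symbol on this array. These 9 of the 19938 genes measured that way were taken by symbol, with earlier results of these data known, and each had 1 probe set. Six3 and Six6 were also measured and are described with the further genes of the network. All 9 matched RefSeq by Entrez number under the same symbol.

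Expression was measured on 8 whole-transcript GeneChip arrays in mouse cells of the C57BL/6 strain, in 4 groups of 2, numbered 1 and 2 in each group. One group carried an empty vector, one the full-length fusion NUP98-HOXA9, and the others the deletion mutants NUP98-HOXA9 delFG1 and NUP98-HOXA9 delFG2, called delFG1 and delFG2 from here on. NUP98-HOXA9 is a leukaemia fusion protein: FG (phenylalanine-glycine) repeats of the nuclear pore protein NUP98 are joined to the DNA-binding homeodomain of HOXA9, and the study asked which genes are controlled through its NUP98 part. The labels give neither the kind of cell, the residues removed, the species of the fusion cDNA, the vector, nor whether paired arrays were grown as separate cultures. The p-values therefore measure the spread between these samples alone, and that spread may be technical. Levels are given as deposited intensity on a linear scale or as log2(intensity + 1), errors as SD with n = 2, and differences on the log2 scale. Median intensity lay between 80.7 and 83.2 in the 8 arrays, the lowest value of any array at 18.3 to 18.7 and the highest at 14671 to 15788.

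In the retinal determination network, first worked out in the fly eye, Pax proteins switch on Eya, Six-family and Dach genes. Six-family proteins bind DNA through a homeodomain, Eya proteins do not bind DNA themselves but join Six-family proteins as coactivators and are also tyrosine phosphatases, and Dach proteins, relatives of the Ski corepressors, recruit repressive complexes to the same targets. In mammals the network is known from muscle, kidney and inner ear development, and Eya1 is also known as a gene raised by leukaemia fusion proteins in blood progenitors.

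The cells were checked against marker genes of several tissues; the inner ear was not among them. The 7 skeletal muscle markers lay between 4.78 and 6.69 on the log2 scale, the 5 nephron progenitor markers between 5.46 and 6.54 and the 5 fibroblast and stroma markers between 5.22 and 7.32. The 6 blood cell markers, such as Ptprc and Spi1, lay between 10.3 and 12.9, and the 6 mature myeloid markers, such as Itgam and S100a8, between 9.69 and 13.1. As these are bulk samples, fewer cells of a type and less RNA per cell cannot be told apart.

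Promoter sequence from RefSeq (GRCm38.p6) was at hand for 7 of the 9 genes, in 10 windows of the 250 bases before a start site. The set of promoters used here held no window for Eya1 and Eya2, although both genes matched RefSeq by Entrez number. The windows of Dach1 and of Six4, the members whose signal ranged most widely over the arrays after Eya1, are shown 5′ to 3′ on the strand of the gene, with motif matches in capitals. The Dach1 window is chr14:98169766-98170015 on the minus strand. Six4 had a window for each of 2 start sites; the one shown is chr12:73113246-73113495 on the minus strand, and the other held no match to the motifs below.
Dach1: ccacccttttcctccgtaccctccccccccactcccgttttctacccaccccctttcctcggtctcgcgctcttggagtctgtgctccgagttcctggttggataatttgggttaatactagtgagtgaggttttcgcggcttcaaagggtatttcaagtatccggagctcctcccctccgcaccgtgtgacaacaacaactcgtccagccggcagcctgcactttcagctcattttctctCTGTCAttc
Six4: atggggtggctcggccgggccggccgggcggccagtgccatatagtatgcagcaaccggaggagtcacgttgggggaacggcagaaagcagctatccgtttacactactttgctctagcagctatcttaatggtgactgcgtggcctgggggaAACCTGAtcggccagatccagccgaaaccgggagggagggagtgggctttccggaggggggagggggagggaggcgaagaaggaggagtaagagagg
Capitals mark CTGTCA, the reverse complement of the Meis motif TGACAG, which begins 9 bases before the start of Dach1, and AACCTGA, the reverse complement of the Six-family motif TCAGGTT (the MEF3 element), which begins 97 bases before that start of Six4. Searched on both strands, TGACAG occurred in windows of 3 of the 7 members (Dach1, Six2 and Six5), and in 15.9% of all 32851 windows of this length. TCAGGTT occurred in 1 of the 7 members (Six4) and in 3.49% of all windows. The Pbx-Hox motif TGATTTAT occurred in 0 of the 7 members and in 0.837% of all windows. Some members have more than 1 window, so counts of members and shares of windows are not like for like. A match describes these letters alone.

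Eya1 was the single member of the network that differed past the threshold, an adjusted p of 0.05 by limma over all 21789 probe sets tested, and it did so in each comparison with the full-length fusion. Its signal was about 5-fold higher with full-length NUP98-HOXA9 than with empty vector, and with either deletion mutant it was not above the empty vector level. The levels by array show both full-length arrays far above the other 6.

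**Figure D1:**
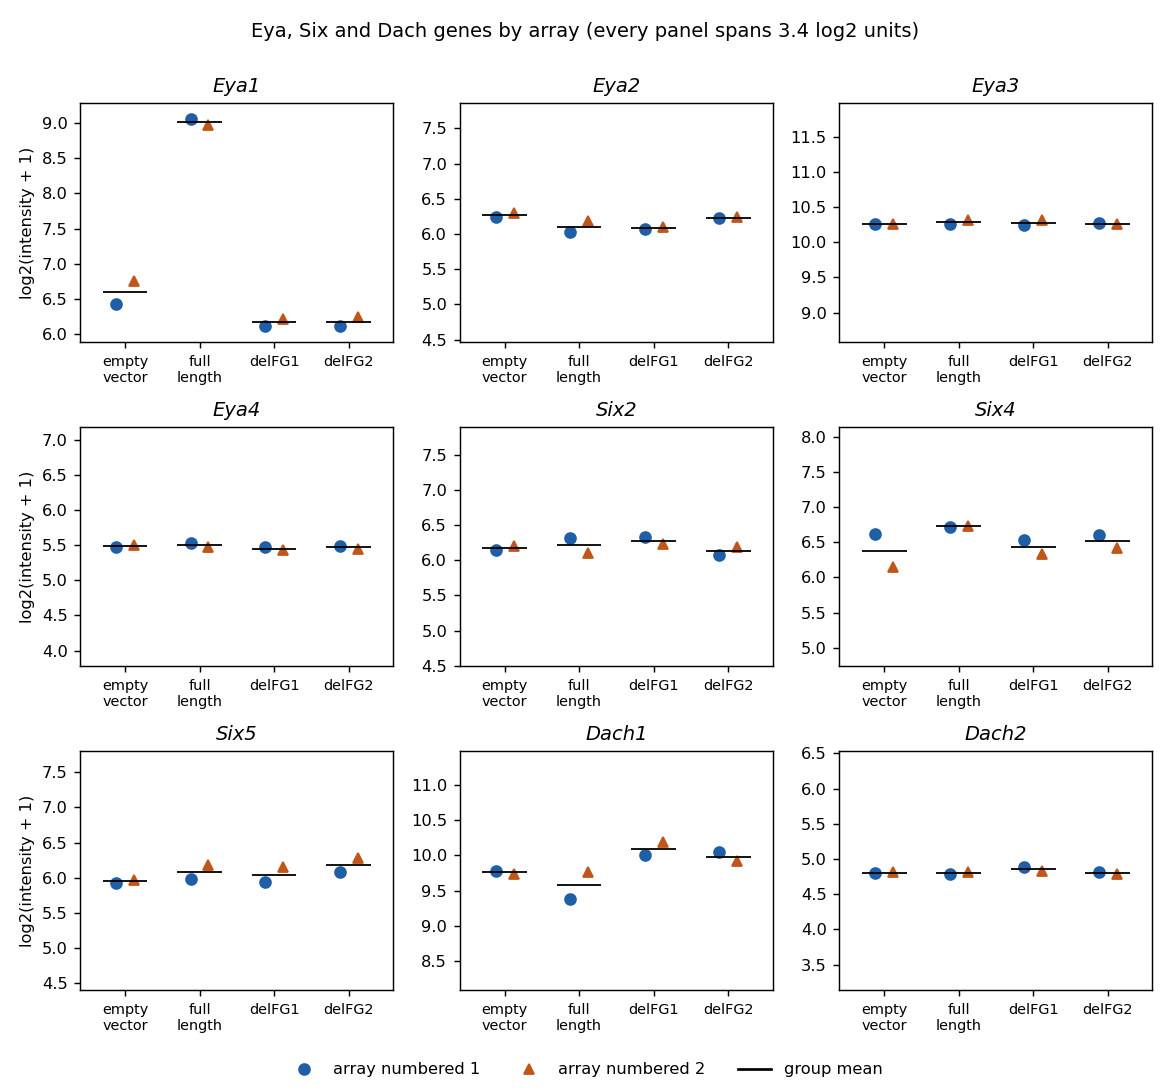
Each panel plots log2(intensity + 1) of 1 gene (vertical axis) in the 4 groups (horizontal axis), with a circle for the array numbered 1, a triangle for the array numbered 2 and a bar for the group mean. Every panel spans the same width on the log2 scale, so distances compare between panels but heights do not. Eya1 stands at 9.06 and 8.98 in the full-length arrays and between 6.11 and 6.76 in the others.

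Eya1, a coactivator of Six-family proteins and a phosphatase, had an intensity of 85.1 and 107 in the empty vector arrays numbered 1 and 2, and of 532 and 503 in the full-length arrays. It was 68.7 and 73.4 in the delFG1 arrays and 68.3 and 74.5 in the delFG2 arrays. The full-length arrays were the highest and the mutant arrays the lowest, with no overlap between these and the empty vector arrays, while the ranges of the mutants overlapped each other. Group means of log2(intensity + 1) were 6.59 ± 0.23 with the empty vector, 9.02 ± 0.06 with the full-length fusion, 6.17 ± 0.07 with delFG1 and 6.18 ± 0.09 with delFG2. Whether the empty vector and mutant signals of Eya1 stand above background was not tested. The folds and differences of Eya1 below are therefore those of array signal.

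Between full-length fusion and empty vector, Eya1 rose by 2.43 on the log2 scale (95% interval 2.12 to 2.73, a 5.37-fold rise), with an adjusted p of 0.000761. It had the smallest p of all probe sets tested and the 3rd largest rise, by 2.63 for number 1 and 2.22 for number 2. In this comparison 0.124% of all probe sets passed, 27 in number, and 1 of the 9 members did. With the number of the array as a block (the replicate block), 6.61% of all probe sets passed and again 1 member, Eya1.

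Against the full-length fusion, Eya1 fell by 2.85 with delFG1 (95% interval of the difference -3.15 to -2.55, a 7.20-fold fall), with an adjusted p of 0.000196. The difference was -2.94 for number 1 and -2.76 for number 2. It was the largest fall of any probe set and had the smallest p. Only 0.00918% of all probe sets passed here, 2 in number, and Eya1 was 1 of them; with the replicate block 0.078% passed, Eya1 again the single member.

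With delFG2, Eya1 fell by 2.84 (95% interval -3.15 to -2.54, a 7.17-fold fall), with an adjusted p of 0.000199. The difference was -2.94 for number 1 and -2.74 for number 2, and it too was the largest fall and had the smallest p of all probe sets. Of all probe sets 0.0275% passed, 6 in number, and 0.468% with the replicate block, with Eya1 as the single member in either fit. Both mutant comparisons use the same pair of full-length arrays.

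Against the empty vector, Eya1 was lower with both mutants by sizes that did not pass. The difference was -0.42 for delFG1 (95% interval -0.73 to -0.12; adjusted p = 0.324 by limma) and -0.42 for delFG2 (interval -0.72 to -0.11; adjusted p = 0.9997). By number these were -0.30 and -0.54 for delFG1, and -0.31 and -0.52 for delFG2. The empty vector arrays, which both of these comparisons share, stood at 6.43 and 6.76. With the replicate block the adjusted p was 0.0609 for delFG1 and 0.171 for delFG2, and for delFG1 it passed (adjusted p = 0.0466, difference -0.57) when the empty vector array numbered 1 was left out of that fit. Without the block 0.129% of all probe sets passed between delFG1 and empty vector and 0.00459% between delFG2 and empty vector, and 0 of 9 members in each; with it 6.12% and 0.505% did, and again 0 members. At an unadjusted p under 0.05 by limma without the block there were 2 members, Eya1 and Dach1, for delFG1 and 1, Eya1, for delFG2, against 9.61% and 4.43% of all probe sets.

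The deletion mutants could not be separated by Eya1. Their difference, delFG2 minus delFG1, was 0.01 with a 95% interval of -0.30 to 0.31 (adjusted p = 0.9997 by limma). None of the 9 members passed in that comparison, where 0% of all probe sets did without the block and 0.537% with it; at an unadjusted p under 0.05, 0 members were found in either fit, against 3.13% of all probe sets without the block and 8.07% with it.

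The other 3 Eya genes did not pass in any comparison. Eya2 had an intensity of 74.5 and 77.8 with the empty vector, 64.1 and 71.5 with the full-length fusion, 66.2 and 67.4 with delFG1, and 73.6 and 74.4 with delFG2. The full-length and delFG1 arrays lay below all empty vector and delFG2 arrays, by small amounts. The log2 difference was -0.17 between full-length fusion and empty vector (95% interval -0.38 to 0.04; adjusted p = 0.638 by limma) and -0.19 between delFG1 and empty vector (-0.40 to 0.02; adjusted p = 0.573).

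Eya3, a widely expressed member of the family, had an intensity of 1223 and 1226 with the empty vector, 1218 and 1273 with the full-length fusion, 1209 and 1274 with delFG1, and 1239 and 1219 with delFG2. Its whole range over the 8 arrays was 0.08 on the log2 scale, and all groups overlapped. Between full-length fusion and empty vector its difference was 0.02, with a 95% interval of -0.17 to 0.22. For Eya1 the range over the same arrays was 2.94.

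Eya4 lay between 42.0 and 45.3 in all 8 arrays, a range of 0.11 on the log2 scale, with all groups overlapping. Its mean was below a level of 5.60 (intensity 47.6), the 95th percentile of 1205 olfactory and vomeronasal receptor probe sets, used here as a guide to signals that cannot be told from background. The same holds for Dach2. A small difference in these genes would therefore be hard to see on this array. The skeletal muscle markers reached 6.69, above the means of Eya2 (6.17), Six2 (6.20), Six4 (6.51) and Six5 (6.06). Also below it were the Eya1 means with the empty vector (6.59), delFG1 (6.17) and delFG2 (6.18). Whether these signals stand above background was not tested.

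Of the 3 Six-family members, which encode DNA-binding partners of the Eya proteins, Six4 varied most. Its intensity was 97.0 and 70.0 with the empty vector, 104 and 105 with the full-length fusion, 92.0 and 79.3 with delFG1, and 96.7 and 85.0 with delFG2. Both full-length arrays lay above the other 6, but the empty vector arrays were far apart. The log2 difference between full-length fusion and empty vector was 0.34 (95% interval -0.02 to 0.71; adjusted p = 0.541 by limma), made of 0.10 for number 1 and 0.58 for number 2. Against the full-length fusion the difference was -0.29 with delFG1 (interval -0.66 to 0.07) and -0.21 with delFG2 (-0.57 to 0.15), and neither passed in either fit. With the replicate block the interval was 0.08 to 0.61 between full-length fusion and empty vector (adjusted p = 0.133 by limma). Between delFG1 and full-length fusion it was -0.56 to -0.03 with the block.

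Six5, a homeodomain protein whose gene lies beside the myotonic dystrophy kinase gene, had an intensity of 59.8 and 61.7 with the empty vector, 62.0 and 71.3 with the full-length fusion, 60.2 and 69.8 with delFG1, and 66.5 and 76.9 with delFG2. Its array numbered 2 was the higher in 4 of 4 groups. The differences from the empty vector were 0.13 with the full-length fusion (95% interval -0.14 to 0.40) and 0.23 with delFG2 (-0.03 to 0.50; adjusted p = 0.9997 by limma). The empty vector arrays lay below the arrays of both these groups.

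Six2, which keeps kidney progenitors from differentiating, had intensities of 70.1 and 73.0 with the empty vector, 79.0 and 67.7 with the full-length fusion, 79.1 and 74.0 with delFG1, and 66.1 and 72.2 with delFG2. The full-length arrays lay near opposite ends of the range of the other arrays, so their group overlapped all others. The difference between full-length fusion and empty vector was 0.03, with a 95% interval of -0.21 to 0.28.

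Dach1, a corepressor related to Ski, had the widest range after Eya1, 0.80 on the log2 scale. Its intensity was 881 and 854 with the empty vector, 668 and 869 with the full-length fusion, 1024 and 1166 with delFG1, and 1062 and 965 with delFG2. All 4 mutant arrays lay above all 4 arrays of the empty vector and full-length groups, and the full-length array numbered 1 was the lowest of all. Group means of log2(intensity + 1) were 9.76 ± 0.03, 9.58 ± 0.27, 10.10 ± 0.13 and 9.98 ± 0.10, in the order empty vector, full length, delFG1 and delFG2.

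No comparison of Dach1 passed. The difference between full-length fusion and empty vector was -0.19 (95% interval -0.50 to 0.13), made of -0.40 for number 1 and 0.03 for number 2. Against the full-length fusion, delFG1 gave 0.52 (interval 0.21 to 0.83; adjusted p = 1 by limma, and 0.296 with the replicate block) and delFG2 0.41 (0.10 to 0.72; adjusted p = 0.9995, and 0.228 with the block). Against the empty vector, delFG1 gave 0.33 (0.02 to 0.65; adjusted p = 0.49 by limma) and delFG2 0.22 (-0.09 to 0.54; adjusted p = 0.9997).

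Dach2, the other Dach gene, lay between 26.6 and 28.6 in all 8 arrays, below the level of 47.6 named above, with a range of 0.10 on the log2 scale. Its difference between full-length fusion and empty vector was -0.00, with a 95% interval of -0.11 to 0.10.

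**Figure D2:**
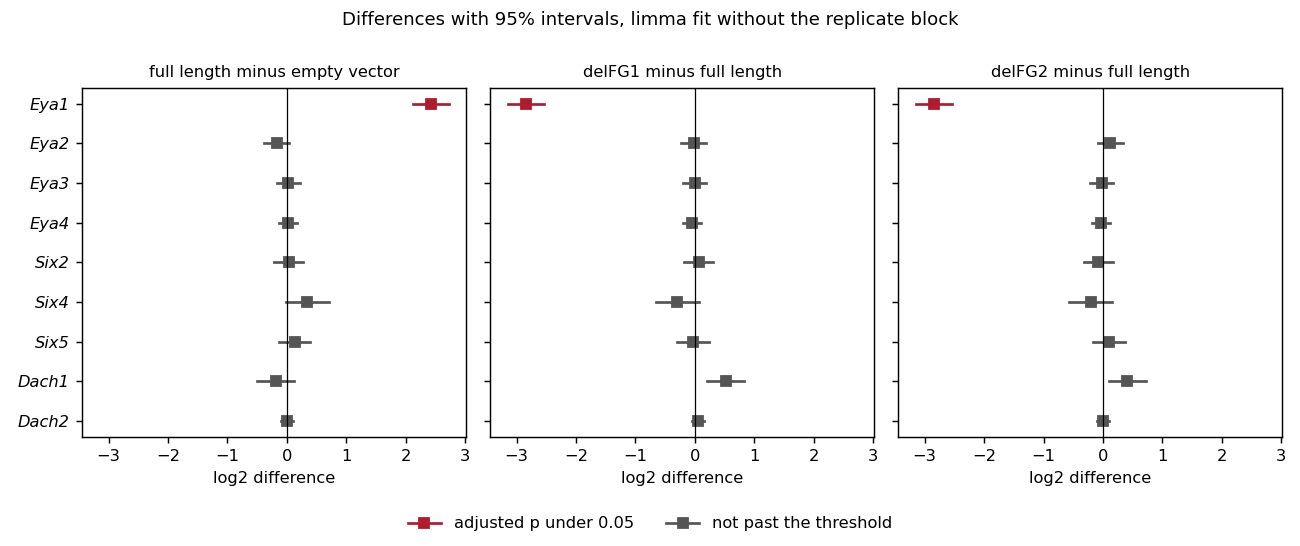
Squares give the log2 difference of each member (rows) and lines its 95% interval, from the limma fit without the replicate block, in panels for full length minus empty vector, delFG1 minus full length and delFG2 minus full length. Eya1, in red, is the single member past the threshold, at 2.43, -2.85 and -2.84. Of the others, Dach1 alone has intervals in this fit that do not include 0, against both mutants.

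For the 8 members other than Eya1, the 95% intervals were taken gene by gene and describe array signal, not transcript. For Eya4 and Dach2, with means below the background level named above, a narrow interval does not bound a change in transcript. Whether Eya2, Six2, Six4 and Six5 stand above background was not tested, so their intervals may not bound such a change either. The intervals of all 8 rest on a spread that may be technical. Between full-length fusion and empty vector they lay within -0.50 and 0.71 on the log2 scale, between delFG1 and full-length fusion within -0.66 and 0.83, and between delFG2 and full-length fusion within -0.57 and 0.72. The median over all 9 members was 0.02, -0.02 and -0.02 in these comparisons, beside 0.02, 0.00 and -0.01 over all probe sets. Without the block, an unadjusted p under 0.05 by limma was found for 1, 2 and 2 of the 9 members, against 9.54%, 2.07% and 2.76% of all probe sets. These were Eya1 in each, and Dach1 in both mutant comparisons. With the block there were 2, 3 and 2, against 18.6%, 4.07% and 8.39% of all probe sets. The member added was Six4, for full length against empty vector and for delFG1 against full length.

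The arrays numbered 1 and 2 were also compared over all groups, where 11.2% of all probe sets passed in the fit with the replicate block. Of the 9 members 0 passed, and 2 had an unadjusted p under 0.05 by limma, against 24.7% of all probe sets, a share near that of the members. These were Six4, at -0.21 (number 2 minus number 1; adjusted p = 0.148), and Six5, at 0.16 (adjusted p = 0.142). The labels do not say what the numbers stand for.

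Around the 9 members, 36 further genes of the network were looked at, of which 33 were measured. Without the replicate block 0 of the 33 passed by limma in any of the 6 comparisons. At an unadjusted p under 0.05 there were 5 between full-length fusion and empty vector, 0 and 0 for delFG1 and delFG2 against the full-length fusion, 5 and 2 for delFG1 and delFG2 against the empty vector, and 1 between the mutants. The shares of all probe sets in that order were 9.54%, 2.07%, 2.76%, 9.61%, 4.43% and 3.13%. The median difference between full-length fusion and empty vector was 0.01 over 9 Pax genes, the upstream regulators, 0.07 over Six3 and Six6, -0.23 over 4 genes of the Ski family, 0.02 over 4 corepressor partners of Dach, 0.02 over 11 genes known as targets of Eya and Six-family proteins, and -0.06 over 3 genes around the histone H2AX, a substrate of the Eya phosphatase. Over all probe sets it was 0.02.

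With the replicate block, 5 of the 33 passed between full-length fusion and empty vector, 4 lower and 1 higher, where 6.61% of all probe sets did. Ski and Skil, corepressors that hold back TGF-beta signalling, fell by 0.48 and 0.60 (adjusted p = 0.00745 and 0.00914 by limma). Ccnd1, the G1 cyclin D1, fell by 0.55 (adjusted p = 0.0127), and Tgfbr1, a TGF-beta receptor, by 0.46 (adjusted p = 0.0223). Myc, a growth-promoting transcription factor, rose by 0.36 (adjusted p = 0.0209). Without the block their adjusted p was 0.28 for Ski, 0.29 for Skil, 0.228 for Ccnd1, 0.344 for Tgfbr1 and 0.345 for Myc.

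Ski stood at 9.50 and 9.55 with the empty vector and 8.96 and 9.14 with the full-length fusion, on the log2 scale, and Skil at 7.99 and 8.17 against 7.31 and 7.66. With the mutants Ski stood at 9.08 and 9.22 with delFG1 and 9.06 and 9.33 with delFG2. Between delFG1 and empty vector 3 of the 33 passed with the block, all lower, where 6.12% of all probe sets passed. These were Ski (-0.38, adjusted p = 0.0249 by limma), Skil (-0.48, adjusted p = 0.0276) and Ccnd1 (-0.67, adjusted p = 0.00378). In the other comparisons 0 of the 33 passed with the block. For delFG1 and delFG2 against the full-length fusion, 0.078% and 0.468% of all probe sets passed. For delFG2 against the empty vector 0.505% did, and between the mutants 0.537%. At an unadjusted p under 0.05 there were 0, 3, 7 and 2 of the 33 in that order. The shares of all probe sets in that order were 4.07%, 8.39%, 10.8% and 8.07%.

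These calls with the block rest on few arrays. When an array was left out, the calls over all probe sets ranged widely too, as given in the last section. The counts of network genes given next are therefore not shown to be a trait of these genes in particular. Between full-length fusion and empty vector the count was 0 without the full-length array numbered 1 and 0 without the full-length array numbered 2. It was 3 without the empty vector array numbered 1, 6 without the empty vector array numbered 2, and 5 without any 1 mutant array. Between delFG1 and empty vector it was 1 without the empty vector array numbered 1, without either full-length array or without either delFG1 array.

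**Figure D3:**
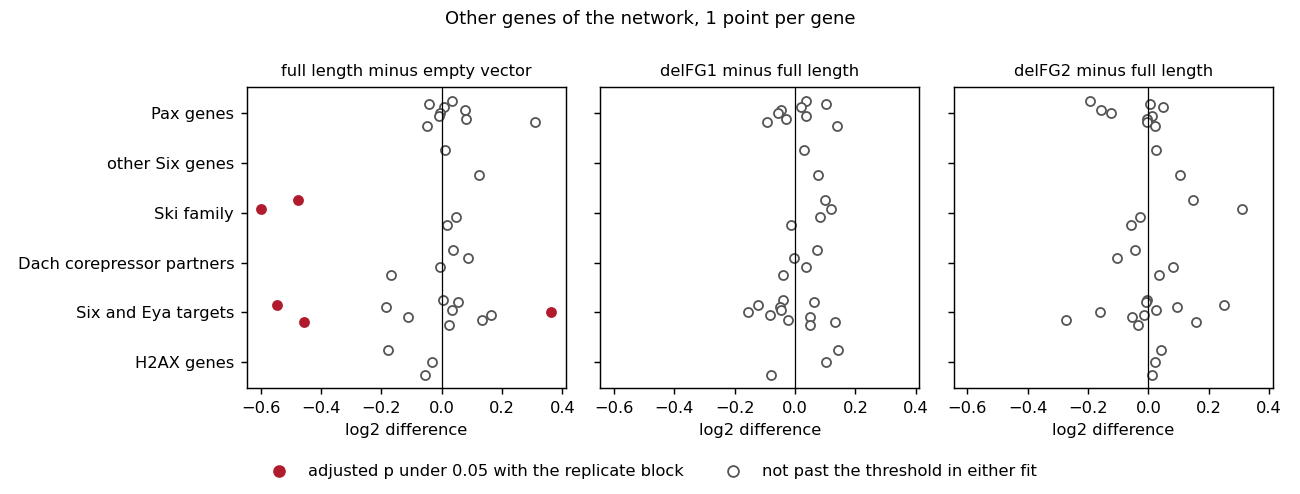
Each point is the log2 difference of 1 further gene of the network, by list (rows), in panels for full length minus empty vector, delFG1 minus full length and delFG2 minus full length. Filled points passed with the replicate block; the 5 in the first panel are Skil (-0.60), Ccnd1 (-0.55), Ski (-0.48), Tgfbr1 (-0.46) and Myc (0.36), and 0 genes passed without the block.

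Some markers of blood and mature myeloid cells also passed with the block. The summed intensity of the 6 blood cell markers was 24656 and 26932 with the empty vector, 21133 and 23885 with the full-length fusion, 21704 and 23727 with delFG1, and 22597 and 24929 with delFG2. That of the 6 mature myeloid markers was 26611 and 31627, 23770 and 27733, 23423 and 28376, and 28285 and 31059 in the same order. With the block, 3 of the 6 blood and 3 of the 6 myeloid markers were lower in the full-length group than in the empty vector group, where 6.61% of all probe sets passed. For delFG1 against the empty vector 2 and 3 were lower, where 6.12% of all probe sets passed. Of the myeloid markers 1 was higher for delFG2 against full length, and 1 for delFG2 against delFG1. The shares of all probe sets there were 0.468% and 0.537%. Without the block 0 passed. Their part in the differences of Eya1, Ski or the other genes was not tested.

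Other genes were ranked by Pearson correlation with Eya1 over the 8 arrays, among the 767 genes with an SD of at least 0.3. The 10 highest were Pbx3 (r = 0.972), which binds DNA with HOX proteins, the ephrin receptor gene Epha3 (0.951), the homeodomain gene Hoxb5 (0.946), the casein gene Csn1s1 (0.899), Hoxa9 (0.847), Hoxc6 (0.847), Hoxc5 (0.841), the transcription factor gene Mef2c (0.830), Crisp3 (0.825) and the Ras activator gene Rasgrp3 (0.822). Both full-length arrays were above the other 6 in these 10, which the ranking itself favours, since Eya1 is high in those arrays. With the empty vector and both mutants, the group means of Epha3, Hoxb5, Csn1s1, Hoxc5 and Crisp3 lay below 5.60, the guide to background named above. With the full-length fusion they lay between 5.74 (Crisp3) and 5.94 (Epha3). Hoxc6 lay below that level with the empty vector (5.29) and delFG2 (5.27). Whether these signals stand above background was not tested. The lowest were the iron exporter gene Slc40a1 (-0.708), Nxpe2 (-0.664), Retnlg (-0.629), the connexin gene Gja5 (-0.622) and Olfml2b (-0.609).

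These correlations rest on the 2 full-length arrays. Over the 6 other arrays r with Eya1 lay between -0.82 (Hoxa9) and 0.76 (Rasgrp3) for the same 10 genes, and it was -0.65 for Pbx3. Leaving out 1 array kept 5 (without the full-length array numbered 2) or 6 (without the full-length array numbered 1) to 10 of them among the highest 10, and Spearman's rho in place of r kept 1, Rasgrp3.

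On the log2 scale Hoxa9 stood at 7.45 with the empty vector, 9.42 with the full-length fusion, 8.16 with delFG1 and 7.82 with delFG2, so that both mutant means lay between those of the empty vector and the full-length fusion. Whether its probe set also reads the introduced fusion is not known. Pbx3 stood at 8.70, 10.44, 8.78 and 8.71 in that order, with both mutant means near that of the empty vector, and Rasgrp3 at 6.27, 6.67, 5.99 and 6.09, with both mutant means below it, as for Eya1. Side by side with the -0.42 and -0.42 of Eya1, the differences of delFG1 and delFG2 from the empty vector were 0.72 and 0.37 for Hoxa9, 0.08 and 0.01 for Pbx3, -0.03 and 0.08 for the HOX partner gene Meis1, and 0.12 and 0.08 for Hoxa10.

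**Figure D4:**
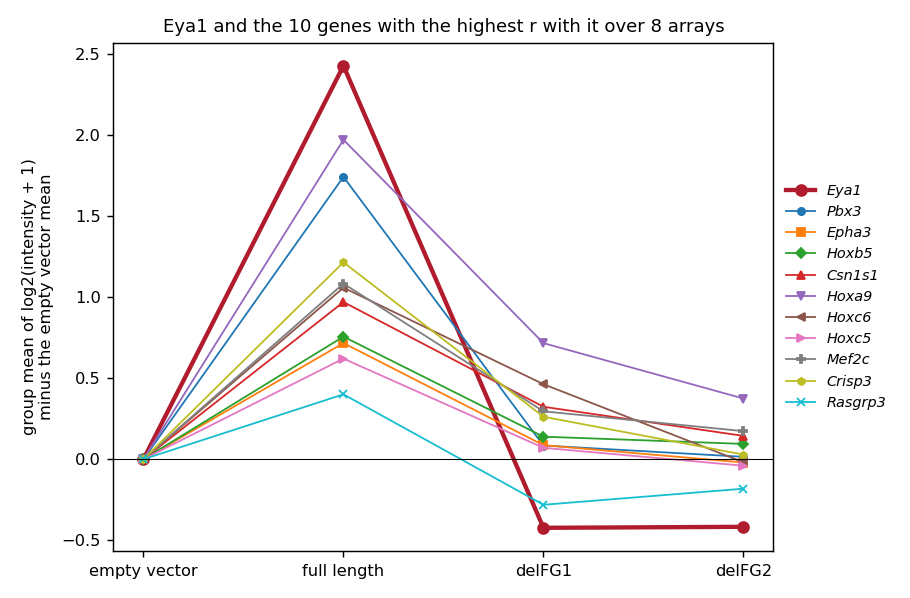
Group means of log2(intensity + 1) minus the mean of the empty vector arrays (vertical axis) are plotted over the 4 groups (horizontal axis) for Eya1 (thick line) and the 10 genes with the highest r with it; lines join the groups to guide the eye. All peak with the full-length fusion, Eya1 at 2.43, Hoxa9 at 1.97 and Pbx3 at 1.74, and with the mutants Eya1 and Rasgrp3 are below the empty vector with both.

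Of the other members, Dach1 ran against Eya1 over the 8 arrays, with r = -0.77, and with r = -0.79 over the 6 arrays without the full-length fusion. Over 8 and over those 6 arrays, r was 0.55 and -0.67 for Six4, 0.52 and 0.42 for Eya4, -0.35 and 0.69 for Eya2, and -0.35 and -0.42 for Dach2. It was 0.23 and -0.13 for Eya3, 0.09 and -0.01 for Six2, and 0.01 and -0.35 for Six5. These are descriptions over arrays that share their groups and their numbers, and the sign of r changed for Six4, Eya2, Eya3, Six2 and Six5 once the full-length arrays were left out.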

How the data were processed

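Total RNA of 8 samples was hybridised to GeneChip arrays, per the labels' protocols. The authors deposited 1 table of intensity on a linear scale, 28853 probe sets by 8 arrays; the labels do not state its background correction, summarisation or normalisation. Values were analysed as log2(intensity + 1) with no further normalisation. Genes were named from the platform annotation: 21789 probe sets had 1 symbol and were tested, 1621 had several and 5443 none.

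limma 3.58.1 in R 4.3.3 (lmFit, then eBayes with an intensity trend) fitted all 8 arrays with 4 group means. Residual degrees of freedom were 4 and prior ones 4.62. All p-values are two-sided and were adjusted by Benjamini-Hochberg over every tested probe set, per comparison. For the replicate block the numbers in the labels were taken to pair the samples. Deviations of same-numbered arrays correlated in all 6 pairs of groups (r 0.401 to 0.640). The fit without the block, which ignores this pairing, was kept as the main one, and the block served as an alternative. The fit with the block had 3 residual and 7.78 prior degrees of freedom. Both fits were tested on simulated data with independent noise and no difference between the numbers, which cannot test the pairing.

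Named were all 9 members, network genes past the threshold in a main comparison in either fit, the 10 highest and 5 lowest genes by r with Eya1 (predicted, receptor and small RNA genes skipped), and Hoxa9, Hoxa10, Meis1 and Pbx3. Members and lists were chosen with earlier results of these data known. Motifs were counted with a script in Python 3.11.15.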

Additional observations from a re-analysis of the deposited data

How the results depend on the processing

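Eya1 was recomputed under 26 alternatives per comparison: the replicate block, 9 other settings (pseudocounts of 16 and 0, no intensity trend, robust eBayes, the compared groups alone, a filter on dim probe sets, median centring, quantile normalisation, all probe sets), and each of the 8 arrays left out without and with the block. The leave-outs with the block, and those of the genes like Eya1, were chosen after seeing the data. A group left with 1 array is assumed to vary like the others. Eya1 passed in 26 of 26 between full-length fusion and empty vector (2.26 to 2.59, adjusted p 7.97e-07 to 0.00912), delFG1 and full length (-2.98 to -2.62, 1.65e-07 to 0.00682) and delFG2 and full length (-2.97 to -2.61, 1.7e-07 to 0.00797). Between delFG1 and empty vector it passed in 1 of 26 (-0.59 to -0.26, adjusted p 0.0466 to 0.9996, members called 0 to 1), between delFG2 and empty vector in 0 and between the mutants in 0 (-0.056 to 0.068). Of 1236 other member values 0 passed. A sign changed in 71 of 1392 member values, 0 of them past the threshold before or after; the cause was not tested. Eya4 and Dach2 have no value under the filter on dim probe sets. The replicate block changed no call of a member; it took the network genes from 0 to 5 (full length and empty vector) and to 3 (delFG1 and empty vector). Spearman's rho left 1 of the genes like Eya1.

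Signs also turned for Eya3 under median centring (0.0051, delFG1 and full length; -0.0032, delFG2 and empty vector) and Dach2 under quantile normalisation (-0.0014, delFG2 and full length). With 1 array left out, values ranged as follows. Full length minus empty vector gave Eya3 -0.0072 to 0.056, Eya4 -0.026 to 0.061, Six2 -0.093 to 0.16, Dach1 -0.38 to 0.0029, Dach2 -0.027 to 0.022, and 0 to 6 network genes. DelFG1 minus full length gave Eya2 -0.097 to 0.058, Eya3 -0.043 to 0.033, Six2 -0.061 to 0.19 and Six5 -0.14 to 0.069. DelFG2 minus full length gave Eya3 -0.055 to 0.016, Eya4 -0.067 to 0.00010, Six2 -0.21 to 0.043 and Dach2 -0.023 to 0.025. DelFG1 minus empty vector gave Eya3 -0.018 to 0.058, Eya4 -0.079 to 0.0079, Six4 -0.18 to 0.28, Six5 -0.011 to 0.20, and 0 to 4 network genes. DelFG2 minus empty vector gave Eya3 -0.030 to 0.041, Eya4 -0.060 to 0.028, Six2 -0.16 to 0.056, Six4 -0.096 to 0.37, Dach2 -0.019 to 0.016, and 0 to 2 network genes. DelFG2 minus delFG1 gave Eya3 -0.052 to 0.023, Eya4 -0.0066 to 0.046, Six4 -0.021 to 0.19 and Dach1 -0.27 to 0.045. Of the genes like Eya1, 5 to 10 were kept. Over all probe sets, without the block, calls ranged over 7 to 36, 1 to 4, 1 to 7, 0 to 34, 0 to 2 and 0 to 4 with 1 array left out, and over 19 to 41, 1 to 2, 3 to 10, 5 to 39, 0 to 2 and 0 to 0 under the other settings, in the order of comparisons above; with the block and 1 array left out they were 385 to 2378, 5 to 44, 17 to 324, 487 to 2272, 2 to 1065 and 1 to 313.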
